A study of Mus musculus with 6 samples.

Results

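The ephrin, Slit and netrin genes encode ligands and receptors by which cells sense their neighbours and their path. They were chosen by symbol as 36 listed genes: 14 ligand genes (8 ephrins, 3 Slits, 3 netrins) and 22 receptor genes (14 Eph receptors, 2 Robo receptors and 6 netrin receptors). Of these, 35 had a probe set carrying their symbol alone, among 22180 genes measured, and Ephb2 was not analysed here. Expression was measured on 6 microarrays of whole mouse lung buds taken at E12.5, during the branching of the airways. The study asked which genes depend on Fzd2, a Wnt receptor of the Frizzled family, in the lung epithelium. The mutant group was 3 arrays of lungs of genotype Fzd2Flox/Flox; Shh cre/+, and the control group was 3 arrays of lungs of genotype Shh cre/+, which carried the same Cre allele without floxed Fzd2. Cre from the Shh gene acts in lung epithelium, and the surrounding mesenchyme, vessels and nerves were not targeted but were measured with it. The labels name the arrays as biological replicates, and the sources used here do not say whether lungs were pooled. All values are log2 expression values, and all differences are mutant minus control with the standard error (SE) of limma, a linear model fitted to every gene. In such bulk samples, fewer cells of a type and less RNA per cell cannot be told apart.

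Ephrins are ligands held on the cell surface, by a lipid anchor in the A class and by a membrane-spanning segment in the B class. Their Eph receptors are tyrosine kinases, and contact between ligand and receptor signals into both cells, most often to keep them apart. Slits are secreted proteins that repel cells carrying Robo receptors. Netrins are secreted relatives of laminin that attract through Dcc and Neo1 and repel through Unc5 receptors. In the embryonic mouse lung, netrins are known in the basement membrane of the epithelium, and they have been proposed to restrain the outgrowth of extra buds.

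The arrays had medians from 7.29 to 7.32, and their number, 3 per group, limits the precision. Fzd2 stood at 9.67, 9.07 and 9.54 in mutant replicates 1 to 3, against 9.57, 9.82 and 9.75 in control replicates 1 to 3, a difference of -0.29 (SE 0.15, limma adjusted p = 0.475). Mutant replicate 1 lay inside the control range. The difference of Fzd2 was -0.41 with mutant replicate 1 left out, and -0.10 with mutant replicate 2 left out. The lung markers Nkx2-1 (10.05 to 10.09 in mutants, 10.41 to 10.57 in controls) and Foxf1 (12.03 to 12.19 in mutants, 12.12 to 12.20 in controls) were read on all arrays. A pair of arrays stood apart. Mutant replicate 2 averaged 9.51 over 11 measured adipose tissue genes, where the other arrays lay between 7.11 and 7.56, and control replicate 1 averaged 9.32 over 12 genes of the adult small intestine, where the others lay between 6.45 and 6.62. Control replicate 2 averaged 5.63 over 3 Y-linked genes, where the others lay between 10.39 and 10.53.

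None of the 35 measured guidance genes passed an adjusted p of 0.05 in limma (0 genes; Benjamini-Hochberg over all genes), and over all genes 14 did (0.0631%). At an unadjusted p under 0.05 there were 5 members, or 14.3%, against 12.49% of all genes, so this share lies near the background. Higher in mutant lungs at that level were Efnb3 and Epha10 (2 genes, background 7.34%), and lower were Epha1, Robo2 and Ntn4 (3 genes, background 5.15%). The differences of all 35 members ran from -0.27 (Robo2) to 0.19 (Efnb3), that is from 83.2% to 114% of the control level. Every 95% interval of a member lay between -0.42 and 0.46. The median absolute difference was 0.075 over the members and 0.066 over all genes.

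**Figure D1:**
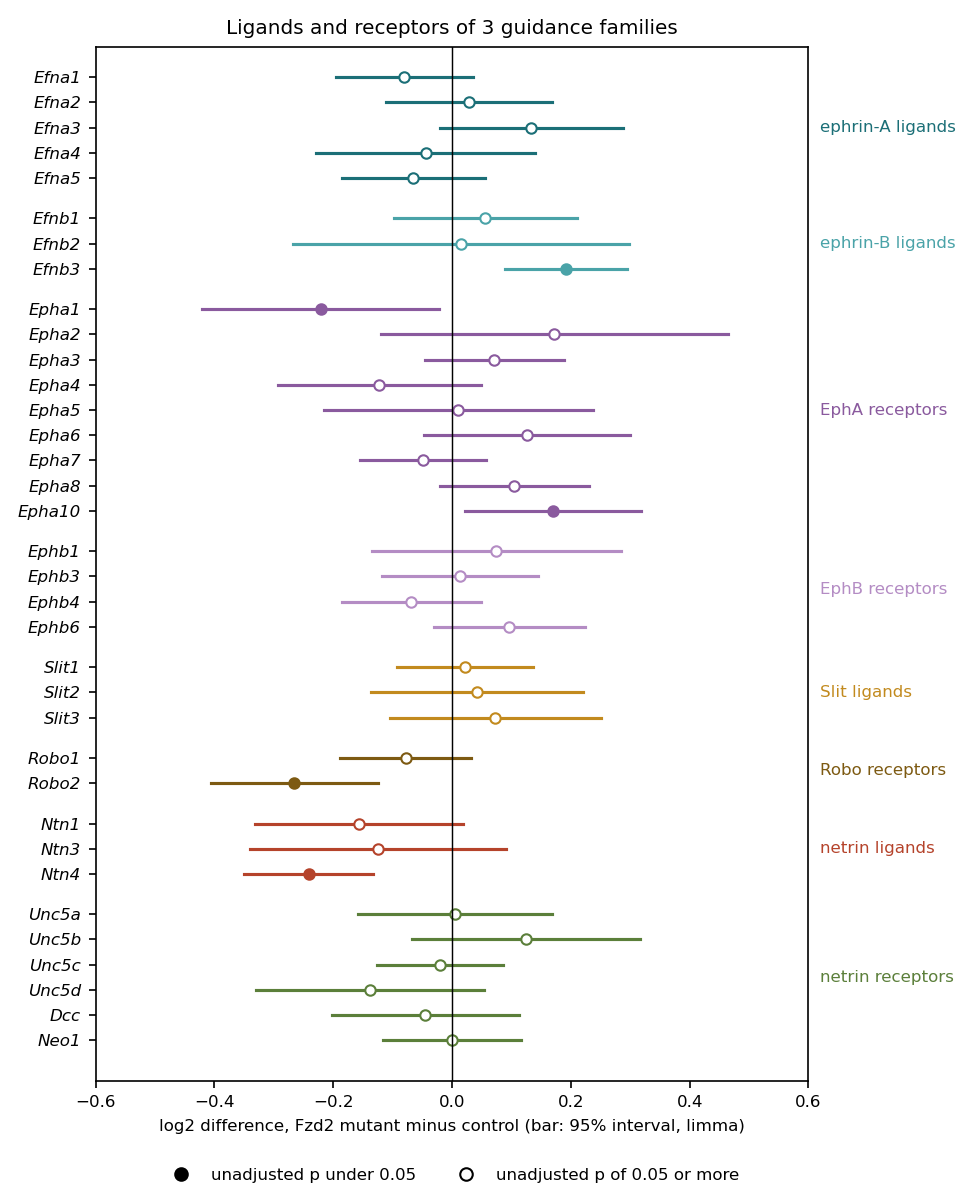
Log2 difference (mutant minus control, horizontal axis) of each measured guidance gene, grouped by ligand or receptor class, with the 95% interval from limma on 3 mutant and 3 control arrays. Filled points mark the 5 genes at an unadjusted p under 0.05, and all intervals lie between -0.42 and 0.46.

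Ligands and receptors both had a median difference near 0, 0.018 over 14 ligand genes and 0.0054 over 21 receptor genes, beside 0.011 over all genes. Both medians changed sign when single arrays were left out. In mutants, 8 ligand genes had higher means and 6 lower, and 12 receptor genes had higher means and 9 lower. The classes within this split differed more. All 3 netrin ligand genes were lower on average (median -0.16), while the 6 netrin receptor genes were split 3 and 3 with a median of -0.010. The 3 Slit genes all had higher means, with a median of 0.042. Both Robo genes among the members, Robo1 and Robo2, were lower on average (median -0.17). Among the 8 ephrin genes 5 had higher means (median 0.022, and -0.031 without mutant replicate 1). Among the 13 measured Eph receptor genes 9 had higher means (median 0.071, and 0.042 under another quantile normalization). Of the 9, that normalization lowered the differences of Epha2, Epha5, Epha6, Epha8, Epha10, Ephb1 and Ephb6 (percentiles 23.5 to 57.2 of mean value). It raised those of Epha3 and Ephb3 (percentiles 97.7 and 78.5). The class medians given here describe few genes each and were not tested.

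Ntn4 had the smallest p of the members. It encodes netrin-4, a basement membrane netrin that binds laminins. It stood at 7.13, 7.08 and 7.13 in mutant replicates 1 to 3, against 7.32, 7.37 and 7.37 in control replicates 1 to 3. The groups did not overlap, and the gap between them was wider than the spread within either. Its mean was 7.11 ± 0.031 in mutants and 7.35 ± 0.031 in controls (SD, n = 3 each). The difference of -0.24 (SE 0.047), 84.6% of the control level, had limma adjusted p = 0.156, the lowest among the members. Ntn4 was rather dim, with a mean value at percentile 41.6 of all genes. Its lead depended on the variance model. With a variance trend, limma gave SE 0.058 and unadjusted p = 0.0029 for Ntn4, above Robo2 (0.0012) and Efnb3 (0.0020).

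The other netrin genes also had lower means, with 95% intervals that included 0. Ntn1, which encodes netrin-1, the best known attractant of commissural axons, stood between 8.47 and 8.56 in mutants and between 8.53 and 8.80 in controls, a difference of -0.16 (SE 0.075, limma adjusted p = 0.438). Ntn3 stood between 8.71 and 8.99 in mutants and between 8.88 and 9.10 in controls, a difference of -0.12 (SE 0.092, limma adjusted p = 0.600). In both genes the groups overlapped. The difference of Ntn3 was -0.036 with mutant replicate 2 left out, and -0.018 with that array and control replicate 1 both left out. For Ntn1, leaving out control replicate 3 gave -0.22, and leaving out control replicate 2 gave -0.084.

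The netrin receptor genes differed little. Unc5d, an Unc5 receptor and the member of this class with the smallest p, stood at 7.95, 7.79 and 7.96 in mutant replicates 1 to 3, against 8.18, 7.91 and 8.02 in control replicates 1 to 3. The groups overlapped, and the difference was -0.14 (SE 0.083, limma adjusted p = 0.520). Without mutant replicate 2 and control replicate 1 together it was -0.0098. Differences of the other Unc5 genes were 0.0054 for Unc5a, 0.12 for Unc5b, which is also known from endothelial cells, and -0.020 for Unc5c. The attractive receptors Dcc and Neo1 (neogenin, which also binds the repulsive guidance molecules) differed by -0.045 (SE 0.068) and 0.00045 (SE 0.050), and the 95% interval of Neo1 ran from -0.12 to 0.12. Mutant values of Neo1 lay between 11.55 and 11.56, inside the control range of 11.51 to 11.62.

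Robo2 had the largest difference of all members. It encodes a Slit receptor that in the mouse kidney acts with Slit2 to limit the budding of the ureter. Its values were 10.28, 10.13 and 10.24 in mutant replicates 1 to 3, against 10.41, 10.51 and 10.52 in control replicates 1 to 3. Every mutant value lay below every control value, with mutant replicate 2 lowest. The means were 10.22 ± 0.079 in mutants and 10.48 ± 0.063 in controls (SD, n = 3 each). The difference was -0.27 (SE 0.060), 83.2% of the control level, with limma adjusted p = 0.198, and 3.88% of all genes had a larger absolute difference. The related receptor gene Robo1 stood between 11.02 and 11.10 in mutants and between 11.11 and 11.15 in controls, a difference of -0.078 (SE 0.047, limma adjusted p = 0.523) without overlap of the groups.

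The ligands of these receptors gave no such gap. Slit3, with the smallest p of the Slit genes, stood at 10.73, 10.55 and 10.54 in mutant replicates 1 to 3, against 10.50, 10.65 and 10.45 in control replicates 1 to 3. The groups overlapped, and the difference of 0.073 (SE 0.076) had an adjusted p of 0.711 in limma. Leaving out mutant replicate 1 gave 0.010 for Slit3, and leaving out control replicate 2 gave 0.13. Slit2, the partner of Robo receptors in kidney and midline, differed by 0.042 (95% interval -0.14 to 0.22), and Slit1, best known from the nervous system, by 0.022 (95% interval -0.093 to 0.14).

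Among the ephrin ligands, Efnb3 stood highest in mutants relative to controls. It encodes ephrin-B3, a membrane-spanning ligand known as a barrier to axons at the midline of the mouse spinal cord. Its values were 9.59, 9.59 and 9.61 in mutant replicates 1 to 3, against 9.38, 9.40 and 9.42 in control replicates 1 to 3. All mutant arrays lay above all control arrays, and the values within each group were close together, with means of 9.59 ± 0.010 in mutants and 9.40 ± 0.022 in controls (SD, n = 3 each). The difference was 0.19 (SE 0.044), 114% of the control level, with limma adjusted p = 0.198. Efnb1 and the arterial endothelium gene Efnb2 differed by 0.056 (SE 0.066) and 0.015 (SE 0.12), with overlapping groups.

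The A class ligands had the smallest p in Efna3, a lipid-anchored ephrin. It stood at 8.44, 8.31 and 8.54 in mutant replicates 1 to 3, against 8.26, 8.32 and 8.30 in control replicates 1 to 3. Mutant replicate 2 lay within the control range, and the difference was 0.13 (SE 0.066, limma adjusted p = 0.453). Without mutant replicate 2 it was 0.19, and without mutant replicate 3 it was 0.078. Efna1 had a small gap between the groups, 9.49 to 9.52 in mutants against 9.52 to 9.62 in controls, with a difference of -0.080 (SE 0.049). Efna2, Efna4 and Efna5 differed by 0.028, -0.045 and -0.066, and their groups overlapped.

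**Figure D2:**
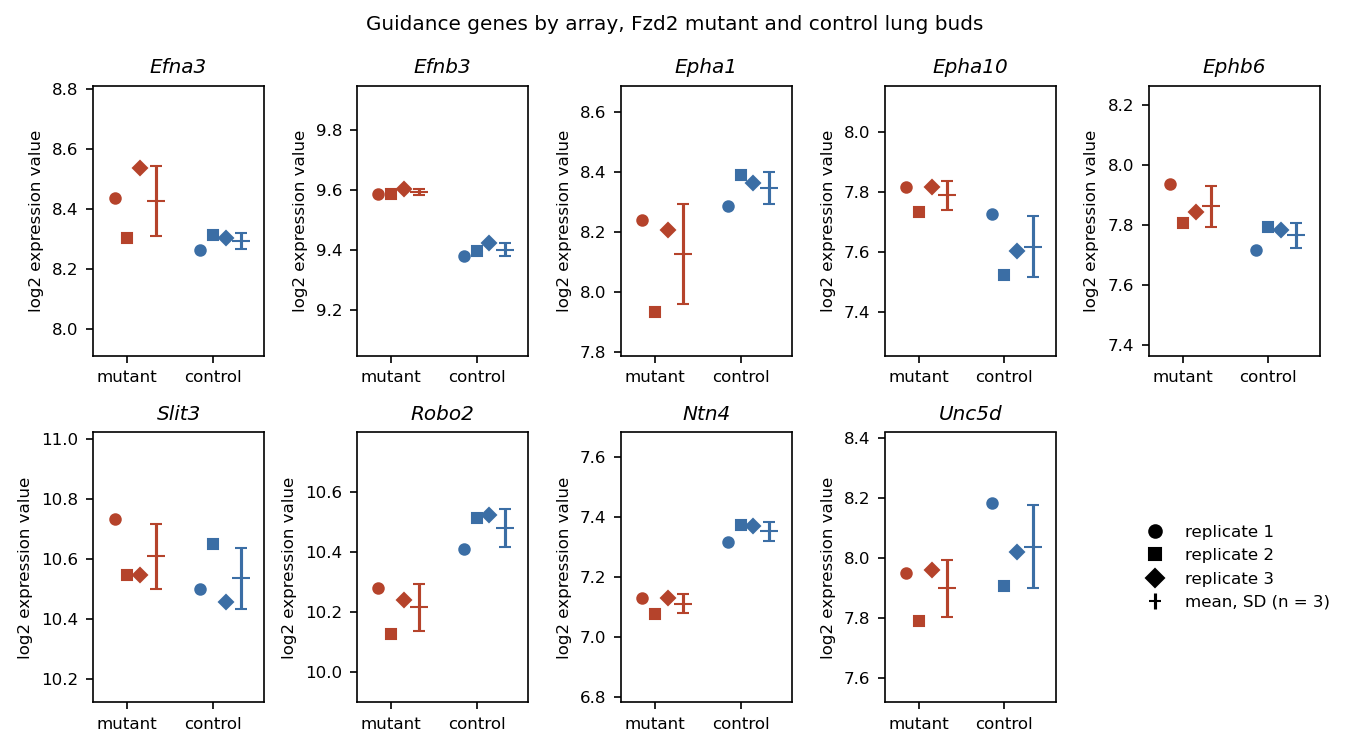
Log2 expression value on each array (vertical axis, the same span in every panel) for the guidance genes with an unadjusted p under 0.05 or the smallest p of their class, mutant left of control, with the mean and SD of 3 arrays. Mutant and control values are apart in Efnb3, Epha1, Robo2 and Ntn4, almost touch in Epha10 and Ephb6, and overlap in Efna3, Slit3 and Unc5d.

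Eph receptor genes pointed both ways. Epha1 encodes a receptor of the EphA class. It stood at 8.24, 7.93 and 8.21 in mutant replicates 1 to 3, against 8.29, 8.39 and 8.36 in control replicates 1 to 3. The groups did not overlap, but mutant replicate 2 lay far below the other mutants, and mutant replicate 1 lay close to control replicate 1. The difference was -0.22 (SE 0.086), 85.8% of the control level, with limma adjusted p = 0.364. Without mutant replicate 2 it was -0.12 (adjusted p = 0.514) and no longer below an unadjusted p of 0.05. Epha1 also lost that level without control replicate 2, without control replicate 3, and with the replicate number as a block.

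Epha10 encodes an Eph receptor whose kinase domain is held to be inactive. It stood at 7.82, 7.73 and 7.82 in mutant replicates 1 to 3, against 7.73, 7.52 and 7.61 in control replicates 1 to 3. The groups were apart by less than the spread within the controls, with the lowest mutant at 7.735 and the highest control at 7.727. The difference was 0.17 (SE 0.064), 113% of the control level, with limma adjusted p = 0.353. It was 0.12 without control replicate 2 and 0.22 without control replicate 1. With each of the 6 arrays left out in turn, Epha10 stayed below an unadjusted p of 0.05 in only 2 cases. Those were the fits without mutant replicate 2 and without control replicate 1. Under another quantile normalization the difference was 0.13 (limma unadjusted p = 0.056).

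The other EphA genes differed by -0.12 (Epha4) to 0.17 (Epha2). Epha2 had the widest interval of all members, -0.12 to 0.46. Mutant replicate 1 stood at 8.59, the other mutants at 8.06 and 8.26, and controls between 8.08 and 8.24. Without mutant replicate 1 the difference of Epha2 was 0.030, and without mutant replicate 2 it was 0.29. Groups that did not overlap were also seen in Epha3 (0.071, SE 0.050), Epha7 (-0.049, SE 0.045) and Epha8 (0.10, SE 0.054), none with an unadjusted p under 0.05. Epha5 and Epha6 differed by 0.010 and 0.13.

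Ephb6, another receptor without kinase activity, had the smallest p among the EphB genes. It stood at 7.94, 7.81 and 7.84 in mutant replicates 1 to 3, against 7.72, 7.80 and 7.78 in control replicates 1 to 3. The lowest mutant and the highest control were almost level, and the difference was 0.097 (SE 0.054, limma adjusted p = 0.496). Ephb3 differed by 0.014 (SE 0.056) and Ephb4, a receptor of venous endothelium that binds ephrin-B2, by -0.068 (SE 0.050). Ephb1 had 2 probe sets, with differences of 0.075 for the brighter and 0.19 for the dimmer.

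In all, the groups did not overlap in 11 members, or 31.4%, against 19.4% of all genes. Of these, 5 were higher in mutants (Efnb3, Epha3, Epha8, Epha10 and Ephb6; background 10.6%) and 6 were lower (Efna1, Epha1, Epha7, Robo1, Robo2 and Ntn4; background 8.83%). The members share the same 6 arrays, and this difference in share was not tested. Across the members, mutant replicate 2 gave the lowest value of the 6 arrays in 14 of 35 genes (40.0%), whereas it did so in 20.7% of all genes. Control replicate 2 gave the highest value in 13 members (37.1%), against 18.3% of all genes. The spread between replicates of the members, a median within-group SD of 0.084, was near that of all genes, 0.078.

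**Figure D3:**
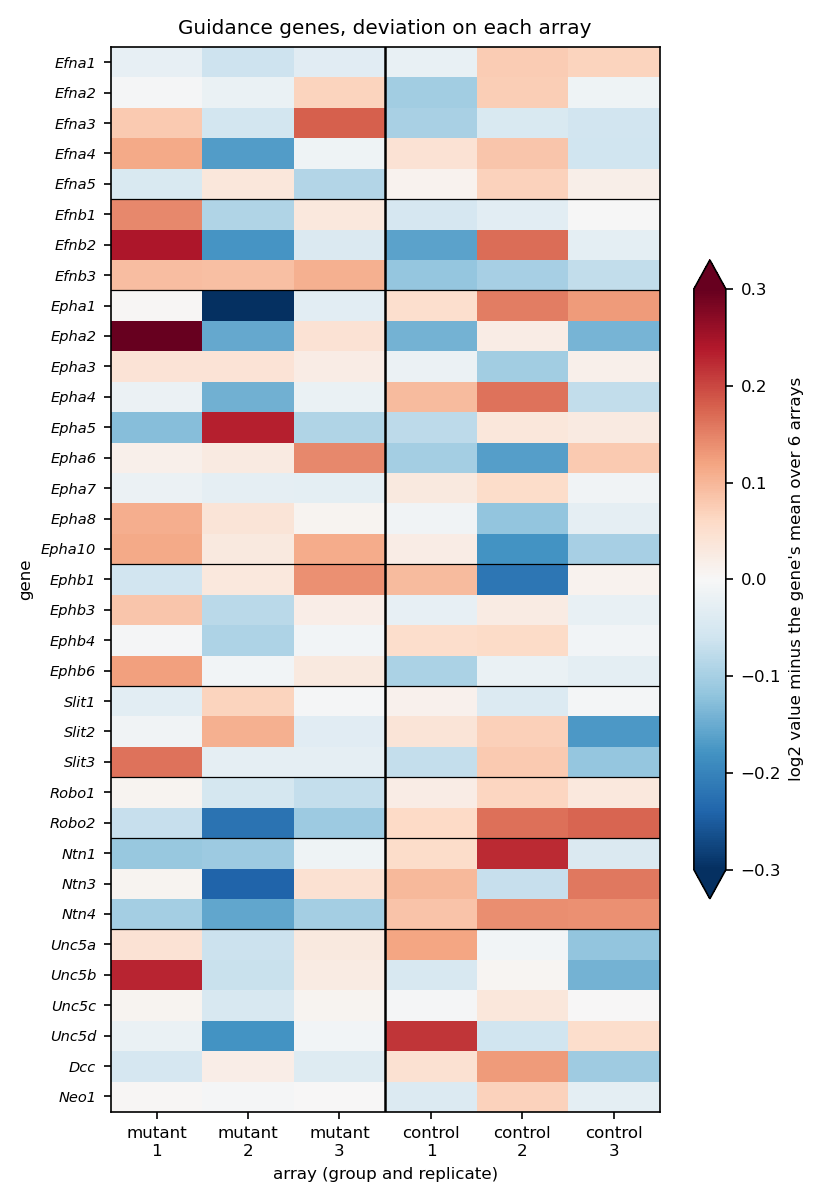
Log2 value of each guidance gene on each array (columns, mutants left of controls) minus the gene's mean over the 6 arrays, with colours saturating at 0.3 in either direction. Horizontal lines divide the 8 ligand and receptor classes. Mutant replicate 2 is the lowest array in 14 of 35 genes.

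Of the 5 genes with an unadjusted p under 0.05, Efnb3, Robo2 and Ntn4 kept that level in each of 16 other settings, including each array left out. The settings are not independent checks. These genes have 1 probe set each, so the settings with other probe sets left their values unchanged. The percentile filter and the other variance models changed only their SE and p. Their adjusted p in those settings lay between 0.148 and 0.467 for Efnb3, 0.148 and 0.488 for Robo2 and 0.109 and 0.457 for Ntn4. Without mutant replicate 2 and control replicate 1 together the differences were 0.19 for Efnb3, -0.26 for Robo2, -0.24 for Ntn4, -0.16 for Epha1 and 0.25 for Epha10. Epha1 kept the level in 12 and Epha10 in 11 of the 16 settings.

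**Figure D4:**
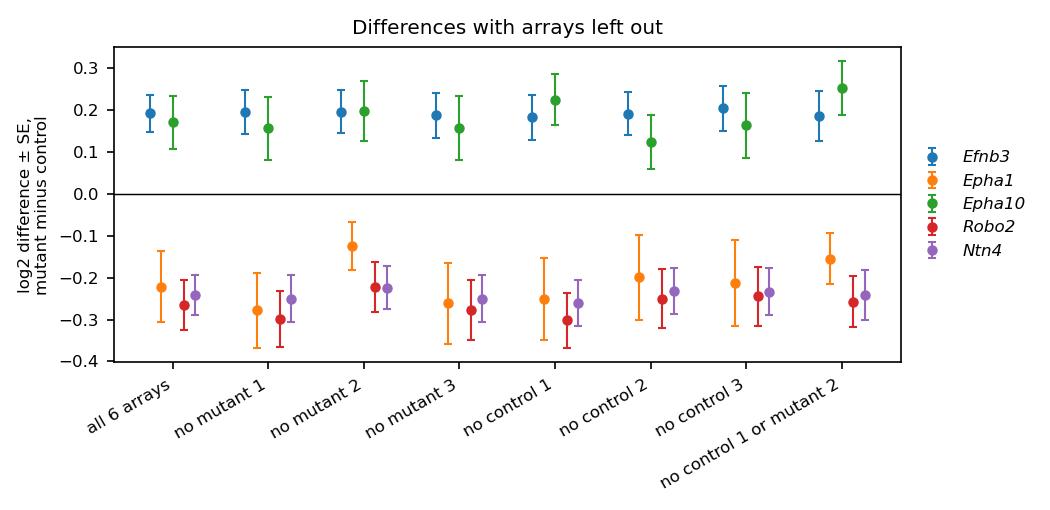
Log2 difference ± SE (mutant minus control, vertical axis) of the 5 guidance genes with an unadjusted p under 0.05, with all 6 arrays and with arrays left out (horizontal axis). Efnb3 and Epha10 stay above 0 and Epha1, Robo2 and Ntn4 below 0 throughout, and Epha1 is closest to 0 without mutant replicate 2.

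Markers of the cell types in the bud were read on the same arrays, and 1 of them, the mesenchyme gene Dcn, passed an adjusted p of 0.05 in limma (0.54, SE 0.050). Of 15 measured epithelial marker genes, 15 had lower means in mutants, and their average per array lay between 9.16 and 9.28 in mutants and between 9.45 and 9.55 in controls. Of 10 smooth muscle markers 8 had lower means (array averages 9.37 to 9.54 in mutants, 9.57 to 9.68 in controls). Ntn4, Robo2 and Epha1 were lower too, but guidance genes and markers were compared only by direction. Higher means, as in Efnb3 and Epha10, were seen in 10 of 16 mesenchyme markers, beside 12153 of all 22180 genes. The array averages of that list were 10.56 to 10.59 in mutants and 10.41 to 10.46 in controls. Its largest differences were those of Lum (0.61), Dcn (0.54) and Prrx1 (0.50). Tbx4, Tbx5, Foxf1, Tcf21, Meox2 and Hoxa5 had lower means. Also higher on average were 8 of 9 measured neural crest and neuron markers (8.19 to 8.36 in mutants, 8.11 to 8.18 in controls). Among leukocyte markers 7 of 10 had higher means (8.21 to 8.33 in mutants, 8.12 on each control array). Array averages overlapped for 8 mesothelial markers, 7 with higher means (8.95 to 9.14 in mutants, 8.79 to 9.02 in controls). They also overlapped for 12 endothelial markers, 5 with higher means (9.51 to 9.63 in mutants, 9.52 to 9.61 in controls). A log2 array scale has no 0, so no marker can be called absent from it. The part of these shifts in the values of the guidance genes was not tested.

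Other genes of the 3 pathways also gave 0 calls at an adjusted p under 0.05 in limma. Of 19 Eph effector genes, 15 had lower means (median -0.046) and 0 had an unadjusted p under 0.05. The smallest p there was that of Tiam1, an activator of the small GTPase Rac (-0.12, SE 0.056). A list of 14 genes that work with Slit and Robo held the further Robo genes Robo3 (-0.056, SE 0.051) and Robo4 (-0.076, SE 0.063). Of these 14 genes, 11 had lower means (median -0.077), and 4 had an unadjusted p under 0.05 (28.6%, against 12.49% of all genes). Lower were Srgap1 (-0.15, SE 0.062), whose protein binds Robo receptors, the exchange factor gene Sos1 (-0.13, SE 0.052) and Enah, which lengthens actin filaments (-0.13, SE 0.058). Flrt3, a membrane protein that binds Robo and Unc5 receptors, was higher (0.19, SE 0.070). Of the 16 other settings, Flrt3 kept that level in 14, Sos1 in 11, Enah in 9 and Srgap1 in 7. Under another quantile normalization only Flrt3 of these 4 kept it. Whether the share of this list differs from that of all genes was not tested. Of 13 measured netrin partner genes 7 had lower means (median -0.0032), and 2 had an unadjusted p under 0.05 (15.4%, near the 12.49% of all genes). They were Flrt2, a ligand of Unc5 receptors (0.19, SE 0.075), and Trio, an exchange factor that acts with Dcc (-0.13, SE 0.052). Flrt2 kept that level in 10 and Trio in 7 of the 16 settings.

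The start regions of Robo2 and Ntn4 are shown because these genes kept an unadjusted p under 0.05 in every setting run and have a window in RefSeq's annotation of GRCm38.p6. Each holds 250 bases before and 50 bases from the annotated start, and capitals mark the 50 bases from the start on. Robo2 lies on the minus strand at chr16:75447244-75447543, the most upstream of 3 windows, and Ntn4 on the plus strand at chr10:93640799-93641098.
Robo2: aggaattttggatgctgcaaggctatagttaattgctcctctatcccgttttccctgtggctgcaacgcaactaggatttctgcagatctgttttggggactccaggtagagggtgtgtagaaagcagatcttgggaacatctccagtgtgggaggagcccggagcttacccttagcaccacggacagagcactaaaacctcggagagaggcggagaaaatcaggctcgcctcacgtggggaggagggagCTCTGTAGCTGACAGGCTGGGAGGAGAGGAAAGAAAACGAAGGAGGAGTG
Ntn4: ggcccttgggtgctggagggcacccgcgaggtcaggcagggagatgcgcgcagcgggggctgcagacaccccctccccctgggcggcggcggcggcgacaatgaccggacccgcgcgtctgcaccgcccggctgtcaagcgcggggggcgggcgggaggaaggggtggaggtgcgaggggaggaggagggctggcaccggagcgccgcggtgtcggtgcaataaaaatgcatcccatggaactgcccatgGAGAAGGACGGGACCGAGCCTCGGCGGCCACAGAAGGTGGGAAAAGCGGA
The windows were searched for CTTTGA and CTTTGT on both strands, letters bound by TCF and LEF factors, through which canonical Wnt signals reach genes. Neither window holds a match. A window was found for 31 of the 36 members, and 3 of these (9.68%) hold a match, those of Efna2, Efna4 and Epha2, against 31.3% of 27025 genes with a window of that length. The windows of the members are richer in G and C, with a median of 66.7% against 52.7% over all genes. Efna2, Efna4 and Epha2 had differences of 0.028, -0.045 and 0.17 between mutant and control lungs. A match is a run of letters and not a site, and its absence from this window says nothing of the factors elsewhere.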

How the data were processed

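Each array received 100 ng of total RNA after T7 amplification and biotin labelling, per the labels' protocols. For 6 arrays the authors deposited log2 values of 41345 probe sets; per the submitters' processing notes the tools were oligo and RMA, with versions and filters not given in the sources used here. RMA corrects background, brings the probe values of the arrays to a common distribution and summarises them, so changes are relative to the bulk of genes. The deposited probe set values still differed somewhat in distribution, with array medians from 7.29 to 7.32. Another quantile normalization moved the median difference of all genes from 0.011 to 5.0e-05. The level at which probes were summarised (gene, transcript or exon) is not stated there. Reverse transcription started from a poly(T) primer, per the labels' protocols, and which part of a transcript each value weighs is not known here. Of the probe sets, 23521 carried 1 symbol in the platform annotation, 1814 several and 16010 none. Each gene was represented by its probe set of highest mean value, with no filter on dim genes; 34 of the 35 measured members lay above the 30th percentile of mean value, and Epha6 did not.

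Mutant and control arrays were compared over 22180 genes with limma 3.58.1 in R 4.3.3 (two-sided, no term but group, Benjamini-Hochberg over all genes, threshold 0.05). An exact permutation of 3 arrays against 3 cannot give a p below 0.1, so none is printed. The members, the pathway and marker lists and the rule for naming genes were chosen with earlier results of these data known. The rule gives array values for members with an unadjusted p under 0.05 or the smallest p of their class, and names up to 4 genes of each pathway list by p. Ntn5, Rgma, Ptk2 and Pak1 of the netrin partners were not analysed here. Alternatives were another quantile normalization, centring on array medians, a filter at the 30th percentile, other probe sets per gene, 2 other variance models, weighted arrays, a block on replicate number, each array left out, a pair of arrays left out, and a threshold of 0.10. On simulated data with the arrays' own spread over 22180 genes, 71 of 100 genes changed by 0.5 and 95 of 100 changed by 1 on the log2 scale were recovered, with 10 false among 176 calls. The noise was drawn independently for each array. Changes as small as those of the members, from -0.27 to 0.19, were not simulated, so their recovery is not known. Same-numbered mutant and control arrays had correlations of -0.045, -0.061 and 0.074 between their deviations from the group means, so the numbers were not taken as pairs. Python 3.11.15 with matplotlib 3.10.9 drew the figures.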

Additional observations from a re-analysis of the deposited data

How the results depend on the processing

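Of 35 measured guidance genes, 23 kept their direction in all settings run, and none passed an adjusted p of 0.05 in limma in any of them (0 genes; 4 to 6 at an unadjusted p under 0.05). Signs turned in genes with small differences. Another quantile normalization gave -0.013 for Epha5, -0.024 for Slit1 and -0.037 for Unc5a, centring on medians gave -0.00032 for Neo1, and array weights gave -0.025 for Epha5. Under that quantile normalization the median was -0.0064 for all receptors and 0.042 for Eph receptors. Without control replicate 1 and mutant replicate 2 together, Epha5 was -0.14, Neo1 -0.018 and Efna4 0.039, and the ephrin-A median was 0.00033. With each array left out in turn, differences ran from -0.016 to 0.072 in Efna2, -0.11 to 0.028 in Efna4, -0.0015 to 0.12 in Efnb1, -0.10 to 0.11 in Efnb2, -0.10 to 0.076 in Epha5, -0.015 to 0.14 in Ephb1, -0.024 to 0.058 in Ephb3, -0.0070 to 0.043 in Slit1, -0.034 to 0.087 in Slit2, -0.052 to 0.066 in Unc5a, -0.11 to 0.0075 in Dcc and -0.020 to 0.035 in Neo1. Medians then ran from -0.031 to 0.030 for ligands, -0.020 to 0.0075 for receptors, -0.031 to 0.076 for ephrin genes, -0.0017 to 0.087 for Slit genes, -0.039 to 0.0051 for netrin receptors, -0.067 to 0.028 for ephrin-A genes, 0.030 to 0.096 for Eph receptors, 0.037 to 0.096 for EphA, 0.0072 to 0.068 for EphB and -0.22 to -0.14 for netrin genes. Over genes above the 30th percentile the EphA median was 0.041, since Epha6 was not among them. Over all genes, the count at an adjusted p under 0.05 was 14. It was 25 with that filter, 26 with a trend and 26 with a robust variance, 57 at 0.10, and 0 without any 1 of the 6 arrays or without the pair (1797 to 3084 at an unadjusted p under 0.05 with 1 array left out, 2716 without the pair). The replicate number as a block gave 0 genes by limma, with 2511 at an unadjusted p under 0.05, and 4 guidance genes at that level in place of 5. Not every array correlated best with its own number. The causes of these shifts were not tested.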
